A study of Mus musculus with 39 samples.

Results

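Lactose, the disaccharide of milk, was compared with its free component sugars galactose and glucose in the proximal small intestine of the mouse. The libraries were chosen by their diet label alone, so that 13 libraries labelled lactose were set against 13 labelled galactose, 26 of the 39 libraries of the series, and all expressed genes were described. The lactose diet supplied 32 en% (percent of dietary energy) as lactose. The galactose diet supplied 16 en% as galactose and 16 en% as glucose, which are the sugars that complete hydrolysis of the lactose would release. A glucose diet with 32 en% glucose was fed to another 13 mice, which entered the shared fit and are named only where their level places a difference. The rest of each diet was the same, with starch at 32 en%, protein and fat at 20 en% each and fructose at 3 en%. The mice of all groups were female C57BL/6JRccHsd animals, weaned on day 21, fed for 3 weeks and killed in the fed state at an age of 42 days. The mucosa was scraped from the proximal small intestine after removal of the first 2 cm of duodenum, with 1 library per mouse. The groups are therefore 1 sex, 1 age and 1 strain, and a scraping is a mixture of epithelial and underlying cells in which fewer cells of a type and less RNA per cell cannot be told apart.

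Lactose is split at the enterocyte surface by lactase, encoded by Lct, into glucose and galactose, which enter the cell together with sodium. Galactose is then phosphorylated, exchanged onto UDP in the Leloir pathway and fed into glucose phosphate, while glucose phosphate can also be drawn into the pentose phosphate pathway, the main source of cytosolic NADPH. NADPH in turn keeps glutathione reduced, and the transcription factor NRF2 (gene Nfe2l2) is the best known activator of genes for glutathione, NADPH and the enzymes that detoxify reactive compounds. The proximal enterocyte also takes up and oxidises fatty acids, for which the PPAR nuclear receptors are known regulators.

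The libraries held similar depth. Total assigned counts ran from 20383251 to 21276455 in the lactose libraries and from 19685385 to 21350610 in the galactose libraries. Markers of the labelled tissue were abundant, with the villus sucrase-isomaltase gene Sis at 4346, 5788 and 8043 CPM with lactose (the lowest, the median and the highest of 13 mice, the form used below) and 4239.8, 6023 and 6884 CPM with galactose. CPM, a library's counts scaled to a common total with TMM factors, are not corrected for gene length, so they compare diets within a gene and not genes with each other. Galactose libraries 4 and 7 held transcripts of pancreatic acinar cells. Ifit3, an interferon-induced gene, stood above 100 CPM in lactose libraries 3 and 9, in galactose libraries 3, 8 and 9 and in 2 glucose libraries. Results that rest on these libraries are given with and without them. Symbols came from a table of another annotation release than the counts, and reads of near-identical gene copies may have been split or dropped.

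Diet changed a large part of the mucosal transcriptome by small amounts. Of 14658 tested genes, 4532 (30.9%) passed an adjusted p of 0.05 in edgeR's quasi-likelihood test, of which 2328 (15.9%) were higher and 2204 (15%) lower with lactose than with galactose. The p-values measure the spread between mice. Among the called genes the median absolute log2 difference was 0.38, with quartiles of 0.25 and 0.60. Only 230 genes were called higher and 159 lower by more than 2-fold. In 121 genes (0.825%) the 13 lactose mice and the 13 galactose mice did not overlap, with lactose above in 91 and below in 30.

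The genes higher with lactose were mostly abundant and short, and those lower with lactose mostly scarce and long. The median mean log2 CPM was 5.74 for called higher genes and 2.65 for called lower genes, against 3.57 for all tested genes. The median longest transcript was 2545 bases for higher genes and 4120 bases for lower genes, against 3162 bases for all. Within the top quartile of abundance 1243 were higher and 242 lower, whereas within the bottom quartile 252 were higher and 593 lower. Scaling bears on this split, since the median log2 difference of all tested genes was -0.02 with TMM factors and -0.16 when counts were scaled to library totals, and 51.4% of calls were higher with TMM factors against 17.7% with library totals. Differences are therefore read against these medians. Counts of called list members are likewise to be read against the 15.9% higher and 15% lower of all tested genes. Several of the gene lists used below had a median that changed sign between the scalings, being above 0 with TMM factors and below 0 with library totals: disaccharidases (0.05 and -0.08), facilitative hexose carriers (0.0018 and -0.14), glycolysis (0.05 and -0.08), cholesterol synthesis (0.01 and -0.14), respiratory chain (0.09 and -0.05), peroxide enzymes (0.07 and -0.07), glycosyltransferases (0.09 and -0.04), goblet cells (0.04 and -0.10), enteroendocrine cells (0.03 and -0.10), unfolded protein and amino acid responses (0.02 and -0.12) and immediate early genes (0.0017 and -0.13).

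In called genes the mean of the glucose diet usually lay between. Its mean stood between those of lactose and galactose for 1877 (80.6%) of the called higher genes and 1918 (87.0%) of the called lower genes, against 7089 (48.4%) of all tested genes. This is a description, since both contrasts share the lactose and galactose mice. Called genes were also selected for a wide gap between these diets, and another mean falls inside a wide gap more easily. Their excess over all tested genes is therefore partly built in. In a principal component analysis of the 26 libraries, the first component held 20.2% of the variance and separated every lactose library (-39.5 to -6.58) from every galactose library (11.9 to 35.3).

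**Figure D1:**
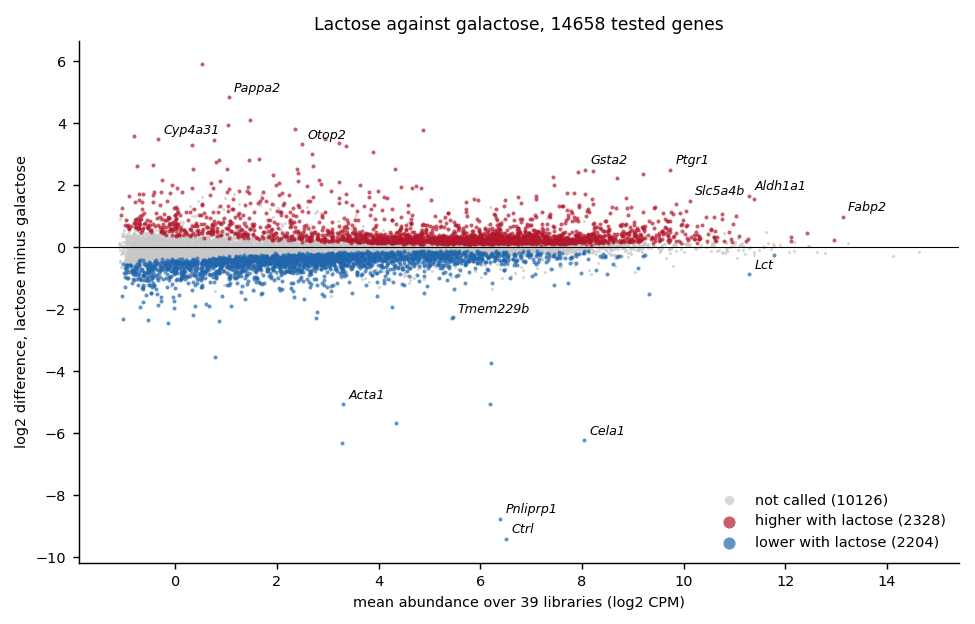
Log2 difference (lactose over galactose) of each tested gene against its mean log2 CPM over the libraries, with called genes coloured and some of the genes described in the text labelled. Higher calls crowd at the abundant end and lower calls at the scarce end, and the 4532 called genes mostly lie close to 0.

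A tissue score from muscle, fibroblast and crypt genes also differed between the diets. It ran from -1.11 to 0.222 with lactose (median -0.525) and from -0.414 to 1.89 with galactose (median 0.437). The groups overlapped, and galactose mice were mostly the higher ones. Over the 26 libraries the score correlated with the first principal component (r = 0.83), so that component does not follow diet alone. The score had been composed in an earlier look at these data and holds genes of the lists described below. With the score as a covariate 1039 genes were called (7.09%), 559 higher and 480 lower, and 1001 of them were called in the same direction without it. Its part in each result was not tested. Of the called genes in the results that follow, Slc2a5, Slc2a9, Slc2a3, Galk1, Galm, Nans, Hk2, Aldoa, Khk, Pck1, Sod3, Prdx4, Cyp2j6, Isx, Mttp, Apob, Sqle, Slc51a, Nr1h4, Dpp4, Enpep, Slc6a19, Ampd3, Vdr, Atp2b1, Slc8a1, Cldn2, Igf1r, Sprr1a, Sprr2a1, Sprr2a2, Gcg, Gbp2, Des, Col1a1, Vwf, Hbb-bs, Ctrl and Cela1 were not called with the score. With library totals Galk1, Galm, Aldoa, Khk, Gbe1, Mttp, Nr1h4 and Sprr1a were not called.

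**Figure D2:**
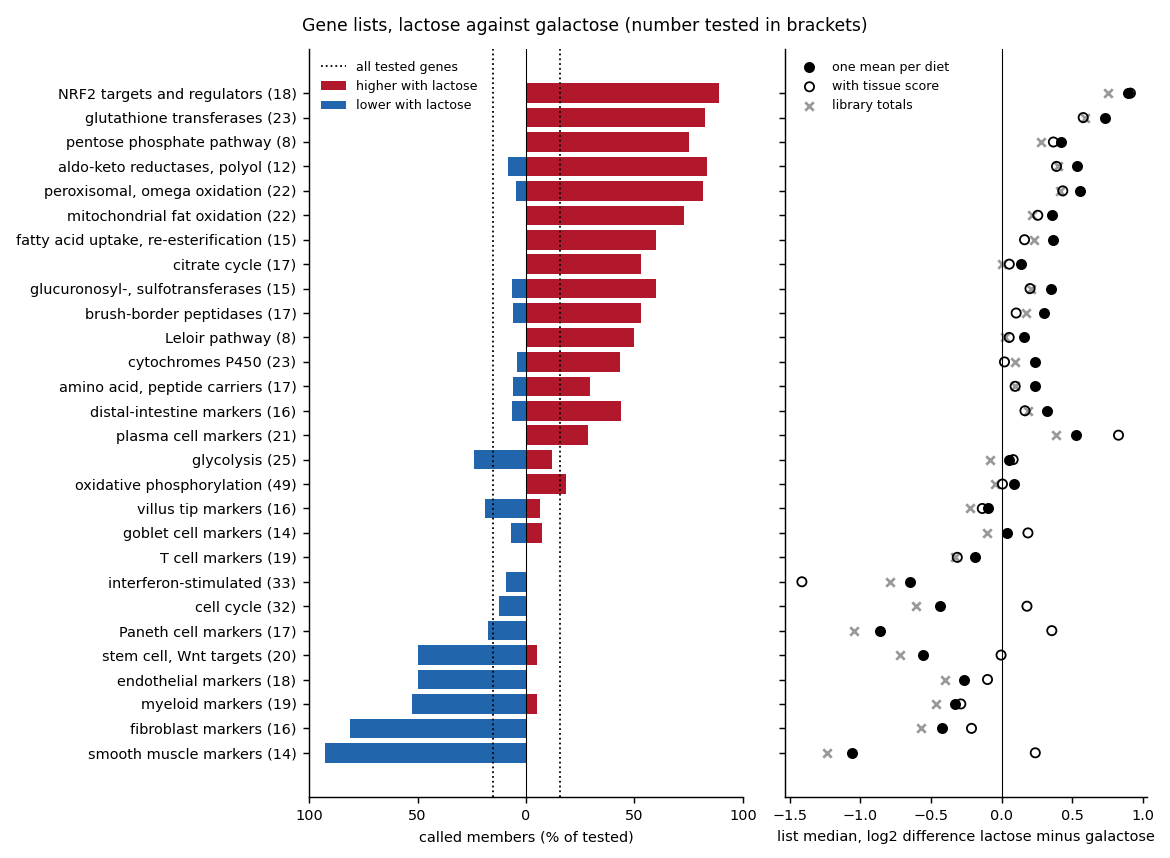
Left, percent of the tested members of each gene list called higher or lower with lactose, with dotted lines at the 15.9% and 15% of all tested genes. Right, list median of the log2 difference (lactose minus galactose) with 1 mean per diet, with the tissue score as a covariate and with library totals. Lists for glutathione and fat oxidation stand at the top on the right side of 0 in each fit shown, and the medians of smooth muscle, cell cycle and Paneth cell lists change sign with the tissue score.

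Among genes of sugar digestion and uptake, a transporter gene of the sodium-glucose family and lactase moved in opposite directions. Slc5a4b, a relative of the intestinal sodium-glucose cotransporter in the SGLT3 group, measured 1358, 1661 and 2002 CPM with lactose, against 397, 603 and 829 CPM with galactose. The highest galactose mouse lay below the lowest lactose mouse, and the glucose group fell between with 563, 1064 and 1306 CPM. Slc5a4b was 2.83-fold higher with lactose (log2 1.50, SE 0.11, edgeR adjusted p = 2.90e-12), the smallest p of all genes tested, and its near copy Slc5a4a was not called (log2 0.20, adjusted p = 0.55), although reads may be misassigned between the pair. Lct measured 1197, 1604 and 3333 CPM with lactose, against 2248, 3138 and 5002 CPM with galactose. The groups overlapped, with 12 of 13 lactose mice under the galactose mean. Lct fell by 0.86 on the log2 scale (SE 0.14, edgeR adjusted p = 1.35e-05), and by 0.79 with the tissue score. The other disaccharidases did not pass edgeR's test, with log2 0.03 for Sis, 0.08 for the maltase-glucoamylase Mgam and 0.22 for the trehalase Treh (edgeR adjusted p = 0.0566). Treh was called higher by DESeq2 and by limma-voom, and by edgeR within mice numbered 49 to 69, with the block of neighbouring mouse numbers and without the libraries high in Ifit3, while its log2 difference was 0.000459 with the tissue score.

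The main carriers of dietary glucose and galactose did not pass the test. Slc5a1, the apical sodium-glucose cotransporter, measured 3262, 5249 and 7112 CPM with lactose, against 2227, 4430.0 and 6463 CPM with galactose (log2 0.17, SE 0.16, edgeR adjusted p = 0.41). Slc2a2, the basolateral hexose carrier GLUT2, gave log2 -0.09, adjusted p = 0.569. Of 11 tested facilitative carriers 2 were higher and 2 lower, near the 15.9% and 15% of all tested genes. Slc2a5, the fructose carrier, was higher (log2 0.72, adjusted p = 0.00345), and so was Slc2a9, a urate carrier (log2 0.35, adjusted p = 0.00253), whereas the intracellular carrier Slc2a8 (log2 -0.59, adjusted p = 1.01e-04) and the neuronal and leukocyte carrier Slc2a3 (log2 -0.46, adjusted p = 0.0423) were lower. With the tissue score only the call of Slc2a8 remained.

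**Figure D3:**
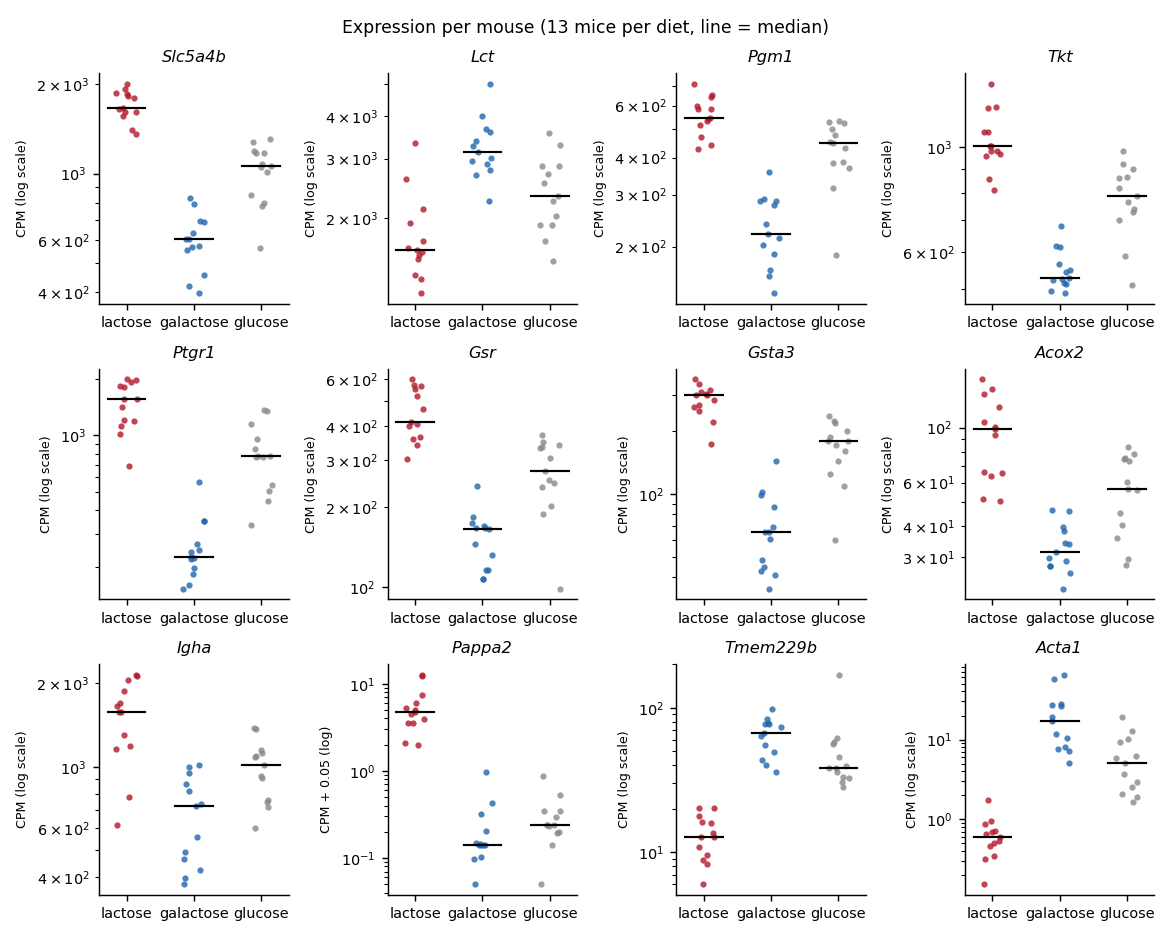
CPM of Slc5a4b, Lct, Pgm1, Tkt, Ptgr1 and other genes in each mouse by diet on a log axis, with a bar at the median. Lactose is at the left, galactose next and glucose at the right, and Pappa2 is drawn as CPM + 0.05. The 13 lactose mice stand above all 13 galactose mice for Slc5a4b, Pgm1, Tkt and Ptgr1, while the groups overlap for Lct.

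In the Leloir pathway the enzymes specific to galactose differed little and those that handle glucose phosphate differed more. The phosphoglucomutase Pgm1, which interconverts glucose 1-phosphate and glucose 6-phosphate, measured 427, 544 and 712 CPM with lactose, against 139, 221 and 358 CPM with galactose. The groups did not overlap, and Pgm1 was 2.40-fold higher with lactose (log2 1.26, SE 0.13, edgeR adjusted p = 3.27e-09). Ugp2, which joins glucose 1-phosphate to UTP, measured 219.7, 291 and 473 CPM with lactose, against 142, 153 and 202 CPM with galactose (log2 0.97, SE 0.10, edgeR adjusted p = 3.27e-09). The galactokinase Galk1 was higher by a small amount (log2 0.21, adjusted p = 0.0291), as was the galactose mutarotase Galm (log2 0.17, adjusted p = 0.0381). The uridylyltransferase Galt was not called (log2 0.11, adjusted p = 0.125). In all, 4 of 8 members rose and 0 fell, while with library totals 2 rose and 1 fell. With the tissue score 2, Pgm1 and Ugp2, were called.

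Further along the UDP-sugars, Ugdh stood out. Ugdh, which oxidises UDP-glucose to the UDP-glucuronate used for glucuronide conjugation, measured 1646, 2033 and 2453 CPM with lactose, against 741, 1064 and 1341 CPM with galactose. The groups did not overlap, and Ugdh was 1.99-fold higher with lactose (log2 0.99, SE 0.09, edgeR adjusted p = 3.03e-10). Among 11 tested genes of UDP-sugar and amino sugar synthesis 2 rose and 2 fell, near the 15.9% and 15% of all tested genes. Cmas, which activates sialic acid, was the other riser (log2 0.46, adjusted p = 8.13e-05), while the N-acetylglucosamine phosphate mutase Pgm3 (log2 -0.32, adjusted p = 0.00315) and the sialic acid synthase Nans (log2 -0.19, adjusted p = 0.0429) were lower. The list median was -0.06, close to that of all genes.

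The pentose phosphate pathway rose at most of its steps. Of 8 tested members 6 were higher and none lower, with a median log2 difference of 0.42. Tkt, the transketolase of the non-oxidative branch, measured 813, 1005 and 1364 CPM with lactose, against 490.2, 529 and 681 CPM with galactose. No lactose mouse lay within the galactose range, and Tkt was 1.89-fold higher (log2 0.92, SE 0.08, edgeR adjusted p = 1.50e-10). The dehydrogenases that produce NADPH were also higher, G6pdx at 154, 212 and 279 CPM with lactose, against 71.0, 105 and 148 CPM with galactose (log2 1.01, SE 0.12, edgeR adjusted p = 3.45e-08), and Pgd with log2 0.85, adjusted p = 7.98e-08. The transaldolase Taldo1 gave log2 0.54, adjusted p = 5.57e-08. With the tissue score 5 members were called. Mouse numbers in the titles fall into 2 runs, and the list medians were 0.43 among mice 1 to 18 and 0.43 among mice 49 to 69.

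Glycolysis showed no common direction. Of 25 members 3 were higher and 6 lower, with a median of 0.05 that became -0.08 with library totals. The hexokinases Hk2 (log2 -0.60, adjusted p = 3.39e-04) and Hk3 (log2 -0.93, adjusted p = 9.61e-06), which trap glucose in the cell, were lower, while the phosphoglycerate kinase Pgk1 (log2 0.41, adjusted p = 1.16e-05) and the aldolase Aldoa (log2 0.30, adjusted p = 9.19e-04) were higher. In fructolysis 4 of 6 genes were higher by small amounts, among them the ketohexokinase Khk (log2 0.20, adjusted p = 0.0346). With the tissue score none of them was called, and with library totals 1 was. In glycogen metabolism 5 of 11 genes were lower, such as the synthase Gys1 (log2 -0.29, adjusted p = 2.62e-04), and the branching enzyme Gbe1 was higher (log2 0.41, adjusted p = 0.00528). Pck1, the gluconeogenic PEP carboxykinase, was higher (log2 1.02, adjusted p = 0.00784) but lost its call with the tissue score (adjusted p = 0.526). Its difference was 0.01 among mice 1 to 18, where it was not called, and 1.56 among mice 49 to 69, and it was the 1 called gene of 6 gluconeogenic genes.

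Aldo-keto reductases and related carbonyl reductases included some of the largest differences among abundant genes. Ptgr1, which reduces the double bond of reactive aldehydes and of prostaglandins, measured 684, 1558 and 1984 CPM with lactose, against 153, 226 and 566 CPM with galactose. All 13 lactose mice were above all galactose mice, and Ptgr1 was 5.69-fold higher (log2 2.51, SE 0.21, edgeR adjusted p = 5.96e-11), with glucose mice between at 335, 774 and 1362 CPM. Akr1b8, an aldose reductase-like enzyme, measured 604, 836 and 1204 CPM with lactose, against 48.8, 165 and 449.9 CPM with galactose (log2 2.36, SE 0.28, edgeR adjusted p = 5.60e-08). Akr1c19 (log2 1.59, adjusted p = 4.38e-10) and Akr1c13 (log2 1.29, adjusted p = 8.76e-09) also rose, with the limit that the Akr1c copies share sequence. In all 10 of 12 members were higher and 1 lower, and 6 were called higher with the tissue score.

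Genes of glutathione synthesis and other known NRF2 targets rose together. Of 18 tested members of that list 16 were higher and none lower, and all 16 were called with the tissue score. The list median was 0.90, against -0.02 for all genes, with 0.82 within title numbers 1 to 18 and 0.87 within 49 to 69. The 2 members not called were the factor itself, Nfe2l2 (log2 -0.09, adjusted p = 0.224), and Keap1, the adaptor that marks it for degradation (log2 0.17, adjusted p = 0.16), each chosen for naming after its value was seen. With library totals 16 members were called higher and 1 lower. With the block of neighbouring mouse numbers 17 were called higher, as were 17 without the libraries high in Ifit3.

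Gsr, the reductase that regenerates glutathione with NADPH, measured 302, 416 and 601 CPM with lactose, against 107, 165 and 240.4 CPM with galactose. The groups did not overlap, and Gsr was 2.96-fold higher (log2 1.56, SE 0.15, edgeR adjusted p = 6.50e-10). Gclm, the modifier subunit of the enzyme that limits glutathione synthesis, measured 307, 412 and 494 CPM with lactose, against 201, 232 and 295 CPM with galactose (log2 0.76, SE 0.09, edgeR adjusted p = 2.64e-08), and the synthetase Gss that completes it gave log2 0.95, adjusted p = 4.52e-08. Further members named after their values were seen were the catalytic subunit Gclc (log2 2.23, adjusted p = 4.74e-07), the quinone reductase Nqo1 (log2 1.34, adjusted p = 5.85e-07), the haem oxygenase Hmox1 (log2 1.35, adjusted p = 4.57e-05) and the carbonyl reductase Cbr3 (log2 2.28, adjusted p = 2.03e-06).

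The glutathione S-transferases, which attach glutathione to reactive compounds, moved the same way. Of 23 tested genes 19 were higher and none lower, with a median of 0.73, and 13 were called with the tissue score. Gsta3, an alpha-class transferase, measured 174, 298 and 356 CPM with lactose, against 35.1, 65.4 and 144 CPM with galactose. The lactose mice lay above the galactose mice, and the difference was 4.06-fold (log2 2.02, SE 0.19, edgeR adjusted p = 2.91e-10). Mgst2, a membrane-bound transferase, measured 233, 365 and 499 CPM with lactose, against 100.2, 133 and 196 CPM with galactose (log2 1.38, SE 0.13, edgeR adjusted p = 2.77e-10). Gstp1 gave log2 0.82, adjusted p = 6.24e-10 and Gsto1 gave log2 0.70, adjusted p = 3.24e-09. The alpha, mu and pi classes hold near-identical copies, so values of single copies are uncertain.

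Promoter windows show where members of these lists carry the core of the antioxidant response element, the sequence NRF2 is known to bind. The core TGACNNNGC was searched on both strands from 250 bases before to 50 after each start site in RefSeq sequence of build GRCm38.p6. It was present in 5 of 14 NRF2 list members with a window (35.7%), in 4 of 21 glutathione S-transferases (19.0%), in 351 of 1741 genes called higher (20.2%), in 259 of 1659 called lower (15.6%), in 1793 of 10640 tested genes (16.9%) and in 3781 of all 27025 genes with a window (14.0%). Among members called higher, 4 of 12 NRF2 list members (33.3%) and 3 of 17 glutathione S-transferases (17.6%) held it. Nfe2l2, which was not called, also held it. A match is a description of these letters and not evidence of binding. The windows of 3 NRF2 list members and of Gsta3 that hold the core, all on the plus strand of build GRCm38.p6 and all of genes higher with lactose, are printed with the motif in capitals. They lie at chr3:122245307-122245606 for Gclm, chr10:82858956-82859255 for the thioredoxin reductase Txnrd1 (log2 0.62, adjusted p = 5.99e-05), chr2:152105274-152105573 for the sulfiredoxin Srxn1 (log2 0.70, adjusted p = 1.35e-05) and chr1:21240335-21240634 for Gsta3.
Gclm: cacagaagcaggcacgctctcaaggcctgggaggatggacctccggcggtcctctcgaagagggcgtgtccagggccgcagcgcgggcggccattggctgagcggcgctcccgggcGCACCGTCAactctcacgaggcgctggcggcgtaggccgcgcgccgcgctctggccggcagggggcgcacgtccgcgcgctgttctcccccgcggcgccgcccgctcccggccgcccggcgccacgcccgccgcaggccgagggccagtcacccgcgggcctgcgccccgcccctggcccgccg
Txnrd1: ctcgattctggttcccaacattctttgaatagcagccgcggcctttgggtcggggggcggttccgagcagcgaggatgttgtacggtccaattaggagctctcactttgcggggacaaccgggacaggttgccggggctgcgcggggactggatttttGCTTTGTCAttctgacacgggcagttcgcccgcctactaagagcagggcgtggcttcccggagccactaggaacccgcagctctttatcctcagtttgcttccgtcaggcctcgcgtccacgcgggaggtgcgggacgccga
Srxn1: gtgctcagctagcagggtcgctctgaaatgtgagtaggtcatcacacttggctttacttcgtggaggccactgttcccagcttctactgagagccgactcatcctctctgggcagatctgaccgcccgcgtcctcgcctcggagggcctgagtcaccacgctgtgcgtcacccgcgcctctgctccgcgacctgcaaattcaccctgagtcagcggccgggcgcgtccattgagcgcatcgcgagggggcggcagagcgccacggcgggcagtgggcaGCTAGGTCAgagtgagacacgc
Gsta3: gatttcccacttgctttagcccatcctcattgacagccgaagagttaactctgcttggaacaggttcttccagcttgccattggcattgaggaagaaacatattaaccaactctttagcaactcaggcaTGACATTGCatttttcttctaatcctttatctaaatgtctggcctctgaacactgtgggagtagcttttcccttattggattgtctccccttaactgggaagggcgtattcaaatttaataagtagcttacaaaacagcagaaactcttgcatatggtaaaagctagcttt
In Gclm, Txnrd1 and Srxn1 the core reads on the opposite strand, and in Gsta3 on the printed one.

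Enzymes against superoxide and peroxide were split. Of 18 genes 7 were higher and 2 lower, and the list median of 0.07 became -0.07 when counts were scaled to library totals. Sod1, the cytosolic superoxide dismutase, measured 792, 1072 and 1224 CPM with lactose, against 406, 448 and 646 CPM with galactose. The groups stood apart, and Sod1 was 2.18-fold higher (log2 1.12, SE 0.10, edgeR adjusted p = 6.20e-11). The peroxisomal catalase Cat (log2 0.73, adjusted p = 2.57e-07), the intestinal glutathione peroxidase Gpx2 (log2 1.23, adjusted p = 2.18e-06) and the peroxiredoxin Prdx1 (log2 0.52, adjusted p = 2.43e-07) were also higher. The lower ones, named after their values were seen, were Sod3, the extracellular superoxide dismutase (log2 -0.41, adjusted p = 0.0227), and Prdx4, a peroxiredoxin of the endoplasmic reticulum (log2 -0.54, adjusted p = 0.041).

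Detoxifying enzymes beyond glutathione were higher more often than lower. Of 23 tested cytochrome P450 genes with their reductase 10 rose and 1 fell, of 15 glucuronosyl-, sulfo- and other transferases 9 rose and 1 fell, and of 12 carboxylesterases 6 rose and none fell. Por, the reductase that passes electrons from NADPH to the P450 enzymes, measured 767, 1037 and 1331 CPM with lactose, against 451, 555 and 765 CPM with galactose (log2 0.85, SE 0.09, edgeR adjusted p = 3.50e-09). All lactose mice exceeded the galactose range. Cyp4b1 (log2 1.41, adjusted p = 7.20e-09) and Cyp2j6 (log2 0.65, adjusted p = 6.66e-06) rose, and Cyp2c55 was lower (log2 -0.93, adjusted p = 5.51e-05). Ces1g, an esterase that acts on lipid esters, measured 172, 368 and 688 CPM with lactose, against 26.3, 62.0 and 183 CPM with galactose (log2 2.45, SE 0.27, edgeR adjusted p = 8.76e-09), though Ces1 copies are similar. The transferase Ugt2b34 gave log2 0.59, adjusted p = 3.00e-08. Maoa, the monoamine oxidase, which was on no list, was among the genes of smallest p at 2061, 2460.2 and 2903 CPM with lactose, against 862, 1142 and 1451 CPM with galactose (log2 1.09, SE 0.10, edgeR adjusted p = 2.51e-10).

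In retinoid metabolism, 6 of 16 genes rose and 2 fell. Aldh1a1, which oxidises retinal to retinoic acid, measured 2332, 3495 and 5947 CPM with lactose, against 687, 1091 and 2097 CPM with galactose. It was 3.16-fold higher with lactose (log2 1.66, SE 0.17, edgeR adjusted p = 1.96e-09). Isx, the intestinal homeobox factor that represses carotenoid uptake, measured 1.35, 6.00 and 71.3 CPM with lactose, against 0.81, 1.58 and 3.84 CPM with galactose (log2 2.54, SE 0.46, edgeR adjusted p = 5.88e-05), a difference that was not called with the tissue score (adjusted p = 0.348). For Isx the log2 difference was 0.83 among mice 1 to 18, where it was not called, and 3.17 among mice 49 to 69. Adh1, an alcohol and retinol dehydrogenase, was higher (log2 1.10, adjusted p = 2.78e-07), and Lrat, which esterifies retinol for storage, was lower (log2 -0.67, adjusted p = 7.52e-05).

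Genes of peroxisomal and omega fatty acid oxidation, taken as 1 list, were mostly higher. Of 22 genes 18 were higher and 1 lower, with a median of 0.55, and 11 were called higher with the tissue score. Acox2, an oxidase for branched chains and bile acid side chains, measured 50.7, 98.5 and 157 CPM with lactose, against 22.4, 31.6 and 46.4 CPM with galactose. The groups did not overlap, and Acox2 was 2.90-fold higher (log2 1.53, SE 0.18, edgeR adjusted p = 5.47e-08). Fatty acid omega-hydroxylases were among the higher genes, and Cyp4a31 is counted in this list. Cyp4a10 measured 60.2, 388 and 1203 CPM with lactose, against 36.7, 74.6 and 200.2 CPM with galactose, and the groups overlapped (log2 2.46, SE 0.33, edgeR adjusted p = 4.31e-07). Cyp4a31, a close relative of low count, measured 0.149, 1.50 and 4.98 CPM with lactose, against 0, 0.133 and 0.364 CPM with galactose, and its fold difference rests on few reads in the galactose mice (log2 3.50, SE 0.44, edgeR adjusted p = 1.41e-07).

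Mitochondrial fatty acid oxidation moved less but in the same direction, with 16 of 22 genes higher, none lower and a median of 0.35. Cpt1a, which admits long-chain fatty acids to the mitochondrion, gave log2 0.43, adjusted p = 1.45e-05, and Acadm, the medium-chain dehydrogenase, measured 236, 273 and 341 CPM with lactose, against 190.4, 207 and 249.6 CPM with galactose (log2 0.39, SE 0.05, edgeR adjusted p = 9.46e-08). The isomerase Eci2 gave log2 0.98, adjusted p = 1.13e-07 and the thiolase Acaa2 gave log2 0.64, adjusted p = 4.90e-06. With the tissue score 5 of these genes were called. In ketone metabolism 3 of 7 genes fell, with the acetyl-CoA thiolase Acat1 (log2 -0.50, adjusted p = 1.92e-06) and the monocarboxylate carrier Slc16a1 (log2 -0.56, adjusted p = 8.35e-06) among them.

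The respiratory chain stayed near the all-gene median. Of 49 nuclear genes for its subunits 9 were higher, none with the tissue score, and their median of 0.09 turned to -0.05 with library totals, where 8 were called lower. Of 13 mitochondrially encoded genes 0 passed edgeR's test, 1 had an unadjusted p under 0.05, and DESeq2 called 1 and limma-voom 0. In the citric acid cycle 9 of 17 genes were higher and none lower with TMM factors, while 4 were higher and 5 lower with library totals. Idh1, the cytosolic isocitrate dehydrogenase that makes NADPH, measured 600.2, 911 and 1155 CPM with lactose, against 411, 504 and 583 CPM with galactose (log2 0.79, SE 0.09, edgeR adjusted p = 5.17e-08), and Suclg2, a succinyl-CoA ligase subunit, gave log2 0.63, adjusted p = 2.17e-07.

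Fatty acid uptake and re-esterification genes were higher in 9 of 15 members and lower in none, 3 of them with the tissue score. Cd36, a fatty acid receptor of the brush border, measured 125, 302 and 945 CPM with lactose, against 60.2, 114 and 169.5 CPM with galactose. The groups overlapped only in part, and Cd36 was 3.35-fold higher (log2 1.74, SE 0.27, edgeR adjusted p = 6.12e-06). The difference was unequal in the runs of mouse numbers, with log2 0.52 among mice 1 to 18, where it was not called (adjusted p = 0.217), and 2.45 among mice 49 to 69 (adjusted p = 2.41e-05). The difference between the runs had an unadjusted p of 4.95e-05 and an adjusted p of 0.245. Fabp2, the intestinal fatty acid binding protein, measured 7499, 12419 and 14613 CPM with lactose, against 4285, 6003 and 8347 CPM with galactose (log2 0.99, SE 0.12, edgeR adjusted p = 6.84e-08). The phosphatidate phosphatase Lpin2 gave log2 0.85, adjusted p = 2.07e-07. Chylomicron assembly differed less, with 4 of 11 genes higher, such as Mttp, which loads lipid onto apolipoprotein B (log2 0.22, adjusted p = 0.0165), and Apob itself lower (log2 -0.25, adjusted p = 0.0242).

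Lipogenic and PPAR-linked genes were mixed. Of 20 lipogenic genes 8 rose and 5 fell. Me1, the malic enzyme that supplies NADPH, measured 504, 759.8 and 1166 CPM with lactose, against 201, 296 and 581 CPM with galactose (log2 1.15, SE 0.15, edgeR adjusted p = 2.12e-07), whereas the elongases Elovl5 (log2 -0.82, adjusted p = 7.87e-08) and Elovl6 (log2 -0.98, adjusted p = 1.27e-04) were lower. Of 16 PPAR receptors and targets 8 rose and 1 fell. The lipid droplet dehydrogenase Hsd17b11 was higher (log2 1.03, adjusted p = 9.22e-08), and the receptor Ppard was lower, at 50.6, 100.1 and 125 CPM with lactose, against 129.9, 168 and 215 CPM with galactose (log2 -0.87, SE 0.12, edgeR adjusted p = 3.98e-07). In cholesterol synthesis 3 of 23 genes were higher and 3 lower, near the 15.9% and 15% of all tested genes. The lower ones included the squalene epoxidase Sqle (log2 -0.50, adjusted p = 0.0402). Sterol and bile acid genes gave 3 higher of 13, including Slc51a, a basolateral bile acid exporter (log2 0.40, adjusted p = 4.90e-04), and Nr1h4, the bile acid receptor (log2 0.48, adjusted p = 0.021).

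Protein digestion genes were higher in 9 of 17 and lower in 1, though none within title numbers 1 to 18 and none with the tissue score. The dipeptidyl peptidase Dpp4 (log2 0.59, adjusted p = 7.08e-04) and the glutamyl aminopeptidase Enpep (log2 0.74, adjusted p = 3.15e-04), both of the brush border, were among them. Amino acid carriers were higher in 5 of 17, such as the neutral carrier Slc6a19 (log2 0.64, adjusted p = 6.77e-04), and none was called with the tissue score. In amino acid nitrogen metabolism 8 of 23 genes rose and 3 fell. Aldh18a1, which makes the proline and ornithine precursor from glutamate, measured 83.9, 105 and 180.4 CPM with lactose, against 166, 301 and 418 CPM with galactose. The ranges overlapped only at their edges, and all 13 lactose mice lay under the galactose mean (log2 -1.16, SE 0.16, edgeR adjusted p = 1.19e-06), and the ornithine aminotransferase Oat was lower as well (log2 -0.85, adjusted p = 8.99e-06).

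Folate and nucleoside genes were mixed. Of 17 folate genes 5 rose and 3 fell. The mitochondrial enzymes Shmt2 (log2 0.69, adjusted p = 1.44e-05) and Mthfd1l (log2 0.75, adjusted p = 4.67e-05) were higher, neither of them called among mice 1 to 18, and the proximal folate carrier Slc46a1 was lower (log2 -0.73, adjusted p = 0.00104). Slc28a1, the sodium-coupled pyrimidine nucleoside carrier, measured 121, 174 and 238 CPM with lactose, against 39.3, 56.4 and 92.4 CPM with galactose. It was 3.07-fold higher with lactose (log2 1.62, SE 0.15, edgeR adjusted p = 3.03e-10). The cytidine deaminase Cda was higher (log2 0.54, adjusted p = 1.03e-06) and the AMP deaminase Ampd3 lower (log2 -0.56, adjusted p = 2.65e-04). In all 3 of 18 members rose and 2 fell, against 15.9% and 15% of all tested genes.

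Mineral and acid-base genes differed one by one. S100g, the calcium binding protein calbindin-D9k, measured 23.4, 164 and 377 CPM with lactose, against 10.1, 45.7 and 132 CPM with galactose. It was 2.96-fold higher (log2 1.56, SE 0.37, edgeR adjusted p = 0.00148), with 1.96 among mice numbered 1 to 18 and 1.06 among those numbered 49 to 69, where it was not called (adjusted p = 0.148). The vitamin D receptor Vdr was higher as well (log2 0.42, adjusted p = 2.13e-04), whereas the plasma membrane calcium pump Atp2b1 (log2 -0.46, adjusted p = 7.07e-04), the sodium-calcium exchanger Slc8a1 (log2 -0.54, adjusted p = 6.32e-04) and the paracellular channel Cldn2 (log2 -1.21, adjusted p = 0.00864) were lower. Mt1, a metallothionein that binds zinc, measured 73.3, 201 and 476 CPM with lactose, against 41.2, 64.3 and 111 CPM with galactose (log2 1.65, SE 0.26, edgeR adjusted p = 5.73e-06), while the zinc exporter Slc30a1 was lower (log2 -0.66, adjusted p = 2.53e-05). The carbonic anhydrase Car4 of the apical membrane was higher (log2 1.90, adjusted p = 3.75e-06) and the sodium-proton exchanger Slc9a3 lower (log2 -0.81, adjusted p = 7.11e-05).

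Of 14 genes of insulin-like growth factor signalling 4 rose and 3 fell, led by Pappa2. Pappa2, a protease that cleaves insulin-like growth factor binding proteins, measured 1.95, 4.66 and 12.6 CPM with lactose, against 0, 0.093 and 0.933 CPM with galactose. All lactose mice stood above all galactose mice, and the glucose mice with 0, 0.192 and 0.832 CPM overlapped the galactose mice. The fitted difference was 28.6-fold (log2 4.84, SE 0.41, edgeR adjusted p = 5.96e-11), and rests on few reads in the galactose mice. The stanniocalcins, inhibitors of that protease family, went apart, with Stc2 higher (log2 0.84, adjusted p = 0.00185) and Stc1 lower (log2 -0.92, adjusted p = 1.91e-04), and the receptor Igf1r was lower (log2 -0.75, adjusted p = 2.31e-05). Of 5 small proline-rich and cornified envelope genes 3 fell and 1 rose. Sprr2a3 was lower (log2 -1.35, adjusted p = 1.38e-07), as were Sprr2a1 and Sprr2a2, and Sprr1a was higher (log2 1.05, adjusted p = 0.0291), the Sprr2a copies being near-identical.

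Other genes of smallest p, none of them on a list, included Tmem229b and Tlcd2 among the lower ones. Tmem229b, a membrane protein gene, measured 5.99, 12.7 and 20.2 CPM with lactose, against 36.0, 67.1 and 98.6 CPM with galactose (log2 -2.29, SE 0.23, edgeR adjusted p = 2.42e-09). Tlcd2, a membrane lipid regulator, measured 24.3, 31.5 and 42.7 CPM with lactose, against 44.6, 65.5 and 129.6 CPM with galactose (log2 -1.14, SE 0.11, edgeR adjusted p = 8.00e-10). In both genes all lactose mice lay below all galactose mice. Asah1, the lysosomal acid ceramidase, was also called (log2 -0.32, adjusted p = 7.28e-08), as were the glucosidase Pgghg, which acts on collagen sugars (log2 -0.89, adjusted p = 1.82e-08), the collagen galactosyltransferase Colgalt1 (log2 -0.48, adjusted p = 2.57e-08) and the adhesion receptor Adgrg1 (log2 -0.75, adjusted p = 2.27e-08).

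Markers of villus position and gut region gave no single direction. Of 16 villus tip genes 1 rose and 3 fell, and 0 of 10 villus base genes were called by edgeR, 1 having an unadjusted p under 0.05, with 0 called by DESeq2 and 2 by limma-voom. Of 14 proximal markers 3 rose and 2 fell, with a median of -0.07. Of 16 distal markers 7 rose and 1 fell, with a median of 0.32, and these included Guca2b, the guanylate cyclase ligand uroguanylin (log2 0.90, adjusted p = 2.72e-07), its receptor Gucy2c (log2 0.28, adjusted p = 3.40e-05) and Tmigd1, an epithelial adhesion gene (log2 1.59, adjusted p = 6.39e-05). Fabp6 and Fgf15, which define the ileum, did not reach the expression filter.

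Crypt base stem cell genes were lower more often than genes at large. Of 20 crypt base stem cell genes 1 rose and 10 fell, with a median of -0.56. Lgr5, the receptor that marks these cells, measured 1.03, 2.20 and 3.75 CPM with lactose, against 3.59, 4.62 and 6.47 CPM with galactose (log2 -1.07, SE 0.14, edgeR adjusted p = 3.19e-07), and Axin2, a Wnt target, gave log2 -1.10, adjusted p = 3.62e-06. With the tissue score, which contains genes of this list, 3 were called lower. Cell cycle and Paneth cell genes were called lower about as often as the 15% of all tested genes, in 4 of 32 and 3 of 17 members, and none rose. Their medians of -0.43 and -0.86 became 0.18 and 0.35 with the tissue score. The goblet, enteroendocrine and tuft lists had 1, 1 and 0 genes higher and 1, 1 and 3 lower, of 14, 18 and 16. Among them Ddc, the decarboxylase of serotonin synthesis, was higher (log2 0.84, adjusted p = 1.48e-06) and Gcg, the proglucagon gene, lower (log2 -0.48, adjusted p = 0.0312).

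Immunoglobulin transcripts were higher with lactose. They made up a median of 0.318% of assigned counts with lactose and 0.158% with galactose. Of 21 plasma cell and B cell genes 6 rose and none fell, with a median of 0.52, and 5 were called with the tissue score. Igha, the heavy chain constant region of IgA, measured 618, 1577 and 2150.1 CPM with lactose, against 376, 723 and 1018 CPM with galactose. The groups overlapped, with 12 of 13 lactose mice above the galactose mean, and Igha was 2.24-fold higher (log2 1.16, SE 0.18, edgeR adjusted p = 5.81e-06). The light chain gene Igkc (log2 1.31, adjusted p = 2.21e-06) and the joining chain gene Jchain (log2 1.22, adjusted p = 3.45e-06) rose with it, as did Tnfrsf17, a receptor of plasma cells (log2 1.22, adjusted p = 3.06e-04). Of 133 tested variable region genes 43 were higher and none lower, with a median of 0.99, against 15.9% and 15% of all tested genes. In none of them did the diets stand apart without overlap, which was rare at large too (0.825% of all tested genes).

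T cell and antigen presentation genes were not called, with 0 of 19 and 0 of 10 past the edgeR threshold. Of the T cell genes 4 had an unadjusted p under 0.05, and DESeq2 called 1 and limma-voom 2 lower, while 9 were called lower with library totals. Of the antigen presentation genes 0 had an unadjusted p under 0.05, and 0 were called by DESeq2 and by limma-voom. Of 19 macrophage and dendritic cell genes 1 rose and 10 fell, including the growth factor receptor Csf1r (log2 -0.54, adjusted p = 2.73e-05) and Clec9a, of cross-presenting dendritic cells (log2 -0.83, adjusted p = 5.14e-04). Of 33 interferon-induced genes 3 fell and none rose, a smaller share than the 15% of all tested genes called lower, with a median of -0.65. The count depended on the fit. In all libraries DESeq2 called 23 of the 33 lower, limma-voom 7, and edgeR with the block of neighbouring mouse numbers 17. Without the 7 libraries high in Ifit3, 24 of the 33 were called lower. Ifit2 gave log2 -1.55, adjusted p = 0.022 in all libraries and the guanylate-binding protein Gbp2 gave log2 -0.52, adjusted p = 0.00548.

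Smooth muscle, fibroblast and endothelial genes were lower with lactose more often than genes at large. Of 14 smooth muscle genes 13 fell and none rose, with a median of -1.06. Des, the muscle intermediate filament, measured 9.80, 16.9 and 33.9 CPM with lactose, against 18.3, 30.0 and 114 CPM with galactose (log2 -1.07, SE 0.22, edgeR adjusted p = 2.17e-04). The groups overlapped. Fibroblast genes fell in 13 of 16, such as the collagen Col1a1 (log2 -0.60, adjusted p = 2.47e-04), and endothelial genes in 9 of 18, such as Vwf, the von Willebrand clotting factor (log2 -0.64, adjusted p = 1.59e-04). Smooth muscle and fibroblast genes are part of the tissue score, and with it 0 smooth muscle, 1 fibroblast and 0 endothelial genes were called lower by edgeR. The summed level of the 14 smooth muscle genes ran from 262 to 554 CPM with lactose and from 398 to 1508 CPM with galactose. Of 18 striated muscle genes listed 5 were tested, of which 3 fell and 1, Mylpf, rose, with a median of -0.41. With the tissue score 1 was called lower and 0 higher. Skeletal-type actin Acta1, a member of that list, measured 0.154, 0.609 and 1.74 CPM with lactose, against 5.14, 17.2 and 64.8 CPM with galactose. No mouse of either diet overlapped the other, and Acta1 fell by 5.05 on the log2 scale (SE 0.47, edgeR adjusted p = 2.91e-10). It remained at -5.43 with the tissue score.

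Blood and pancreas added their own transcripts. All 5 red cell genes tested were higher with lactose, with a median of 1.02, but none was called within title numbers 1 to 18 or with the tissue score. The haemoglobin gene Hbb-bs gave log2 1.02, adjusted p = 0.00608, and its copies share sequence. Pancreatic acinar genes fell in 5 of 8 members. The protease Ctrl measured 0.103, 0.258 and 1.03 CPM with lactose, against 0.272, 0.706 and 3372 CPM with galactose. Its difference of -9.40 became -4.84 without galactose library 4 and -2.13 without galactose libraries 4 and 7. That of Cela1, an elastase, was -6.22 in all libraries, -1.94 without galactose library 4 and 0.02 without both. Without both libraries 1 gene of this list was called lower and 2 higher. The list also holds Zg16, which is on the goblet cell list too and had its highest log2 difference in all libraries, 0.30. Not every member is therefore particular to acinar cells.

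**Figure D4:**
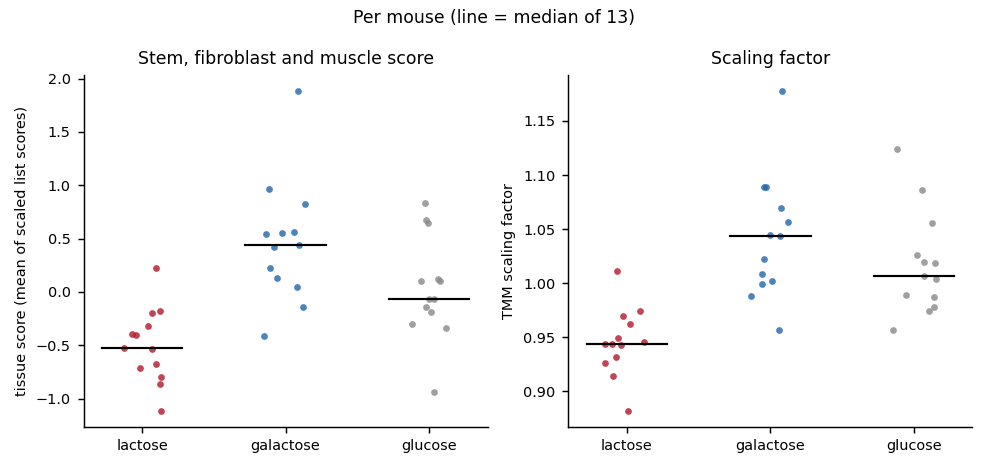
Tissue score (left, the mean of scaled list scores, without unit) and TMM scaling factor (right) of each mouse by diet, with a line at the median of 13. Most lactose mice lie below most galactose mice in both panels, and the glucose mice between.

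Directions were mostly shared by both runs of mouse numbers, and sizes and calls less so. The runs are 1 to 18 with 6 mice per diet and 49 to 69 with 7 mice per diet. The labels do not say what separates the runs. Of genes tested in both, 939 (6.48%) were called within 1 to 18 and 2913 (20.1%) within 49 to 69. Of the 939, 913 (97.2%) had the same sign in the other run, against 75.4% of all genes, and 646 (68.8%) were called there in the same direction and 0 in the opposite one. Of the 2913, 94.8% had the same sign within 1 to 18, and 22.2% were called there in the same direction. No gene passed edgeR's test of a difference between the runs, whose smallest adjusted p was 0.235, and 902 (6.15%) had an unadjusted p under 0.05, as had 891 with library totals. Of 255 named and called genes with a value in both runs all 255 had the same sign, 124 were called in both and 131 were not. Both runs had entered the test that called them. Slc5a4b differed by 1.33 among mice numbered 1 to 18 and 1.64 among those numbered 49 to 69, Lct by -0.76 among mice numbered 1 to 18 and -0.97 among those numbered 49 to 69, and Ptgr1 by 2.07 among mice numbered 1 to 18 and 2.90 among those numbered 49 to 69. Of the named genes, Cd36, Mthfd1l, Isx and Pck1 were among those with larger differences in 49 to 69 and no call in 1 to 18. Mthfd1l differed by 0.24 among mice numbered 1 to 18 and 1.17 among those numbered 49 to 69, with an unadjusted p of 1.87e-04 for the difference between the runs.

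**Figure D5:**
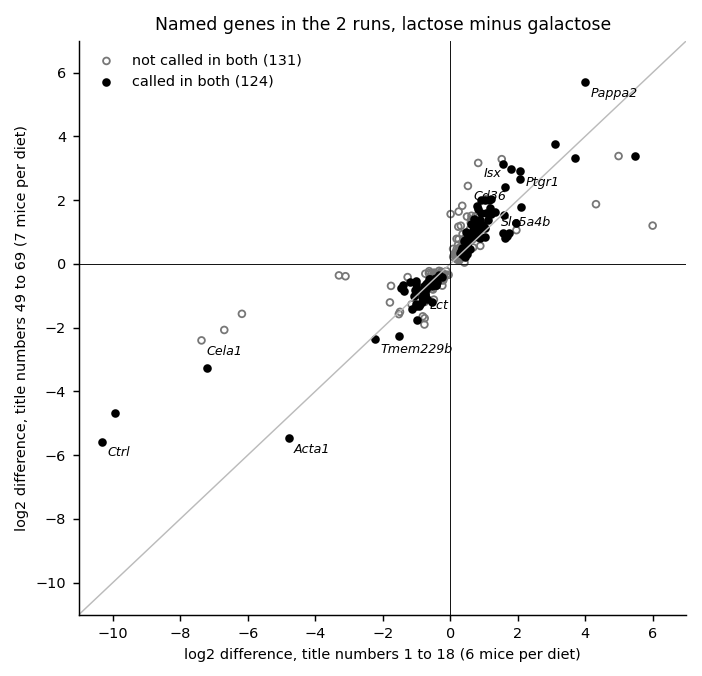
Log2 difference (lactose over galactose) of named genes within title numbers 49 to 69 against that within 1 to 18. All 255 plotted genes lie in a quadrant of shared sign, and filled points mark the 124 called in both runs.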

How the data were processed

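Mucosal RNA was sequenced on the DNBSEQ platform, and the deposited values are raw read counts per gene. FastQC, STAR, HTSeq and the mouse build GRCm39 are named in the submitters' processing notes; their versions, the annotation release and the strand setting are not given in the sources used here, so overlapping and antisense genes cannot be told apart. Each file of the deposited counts held 56980 gene IDs and 5 summary lines, which were removed, and 52073 IDs matched a symbol of a GRCm38 annotation. No 2 libraries held identical counts. Assigned counts per library ran from 19685385 to 21350610 over all 39 libraries.

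From these counts edgeR 4.0.16 (R 4.3.3) kept 14658 expressed genes, scaled with TMM factors and fitted its quasi-likelihood model to all 39 libraries with 1 mean per diet, testing lactose minus galactose with Benjamini-Hochberg adjustment over all tested genes and a threshold of 0.05. Standard errors were taken from the log2 difference and its F value. CPM use the TMM factors. DESeq2 1.42.0, limma-voom 3.58.1, other scalings and filters, a tissue score covariate, runs of title numbers and left-out libraries were alternatives. The steps were tested on simulated data. The members and lists were chosen with earlier results of these data known, and the tissue score was composed after such results. Genes are named by a rule: 15 followed genes, the 12 of smallest p and 6 of largest difference per direction among genes with a mean log2 CPM of at least 1, and up to 4 called members per list, or the 2 of smallest p where none was called. All other genes named were chosen after their values were seen.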

Additional observations from a re-analysis of the deposited data

How the results depend on the processing

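The 4532 calls became 1039 with the tissue score as a covariate, 950 within title numbers 1 to 18 and 2932 within 49 to 69, the runs holding fewer mice. The 2328 higher calls became 1064 with library totals, 559 with the tissue score and 500 within 1 to 18. The 2204 lower calls became 4957 with library totals, 480 with the tissue score, 450 within 1 to 18 and 1351 within 49 to 69. Within title numbers 1 to 18 DESeq2 called 1430 genes against 950 by edgeR. The cause of these shifts was not tested. Under DESeq2, limma-voom, RLE factors, both other filters, the 26 libraries alone, the run as a covariate, and without galactose library 4, galactose libraries 4 and 7 or the Ifit3-high libraries, the counts of higher and lower calls stayed within 1.5 times. Single genes changed sign with the tissue score, at 0.20 for Gp2, 0.000542 for Des, 0.13 for Tagln, 0.17 for Actg2, 0.0218 for Pygb, 0.92 for Ckm and 0.11 for Habp2, and without galactose libraries 4 and 7, at 0.0231 for Cela1 and 0.10 for Gp2. Of 256 named and called genes 130 kept their call with the tissue score, 253 under DESeq2 and 224 with library totals. The replicate numbers are in accession order and pair no mice. As a check, neighbouring title numbers that hold every diet once were taken as triplets and used as a block: 5103 genes were called with the replicate block, 4402 of them shared. Pair correlations ran from -0.126 to 0.413, and 2 of 13 lactose libraries correlated best with their own triplet, with 8 of 13 pairs over 0.1. Depth was even across libraries and limits mainly genes of few reads, such as Pappa2 and Cyp4a31, whose fold differences are imprecise.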

Other observations

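Clock genes formed a mixed set. Of 15 genes 3 rose and 2 fell, against 15.9% and 15% of all tested genes. The list median was 0.34, and none was called within title numbers 1 to 18. Ciart, a repressor of the clock, measured 0.399, 3.93 and 12.1 CPM with lactose, against 0, 0.27 and 2.05 CPM with galactose (log2 2.83, SE 0.70, edgeR adjusted p = 0.0019), and Cry2, another repressor, gave log2 1.24, adjusted p = 3.65e-06, while the receptor Rora was lower (log2 -0.48, adjusted p = 0.00698). Of 9 clock output genes 3 rose and 1 fell, the repressor Nfil3 being lower (log2 -1.18, adjusted p = 0.0273) and the factor Tef higher (log2 1.06, adjusted p = 0.0403). Ciart, Rora, Nfil3 and Tef were not called with the tissue score, and Tef was not called with library totals. Time of dissection is not in the labels used here, and its part was not tested.

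Among 19 immediate early genes 4 fell and none rose, including Egr1 (log2 -1.03, adjusted p = 4.97e-04) and Fosb (log2 -1.49, adjusted p = 0.00444), both transcription factors induced by stimuli. Of 25 genes of the unfolded protein and amino acid responses 4 rose, near the 15.9% of all tested genes called higher. The pseudokinase Trib3 was among the 4 (log2 0.73, adjusted p = 3.01e-04), and the list median of 0.02 became -0.12 with library totals. Egr1, Fosb and Trib3 were not called with the tissue score. Ribosomal protein genes were called higher in 5 of 63, a smaller share than the 15.9% of all tested genes. Their median of 0.16 became 0.01 with library totals, where none was called. Of 23 glycosyl- and sulfotransferases 4 rose and 5 fell, against 15.9% and 15% of all tested genes. The sulfotransferase Gal3st2b measured 122, 179 and 219 CPM with lactose, against 69.3, 86.2 and 119 CPM with galactose and the groups did not overlap (log2 1.04, SE 0.09, edgeR adjusted p = 1.50e-10).

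Cyp2a5, a coumarin-hydroxylating P450 chosen for naming after its values were seen, measured 0.256, 1.50 and 25.6 CPM with lactose, against 0, 0 and 0.267 CPM with galactose and 0.0431, 0.483 and 3.29 CPM with glucose. Its fitted difference (log2 5.90, SE 0.80, edgeR adjusted p = 5.27e-07) rests on few reads with galactose, and it was not called within title numbers 1 to 18 (adjusted p = 0.0537).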
